A study of Homo sapiens with 4 samples.

Results

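The 10 genes described here belong to the BCL2 family, the proteins that decide whether the outer mitochondrial membrane stays intact or is opened during apoptosis. They are the survival members BCL2A1, BCL2, BCL2L1 and MCL1, the pore-forming effectors BAX and BAK1, and the BH3-only death members BID, BBC3, PMAIP1 and BCL2L11. They were taken by symbol from 17182 named genes, through probe sets whose RefSeq transcript accession is assigned to 1 of these symbols. All 10 were measured, by 14 of the 45033 probe sets. KYSE410, an established line of human oesophageal squamous cell carcinoma, was held for 24 h with the control solvent PBS or with 1 of 3 inflammatory stimuli. These were the cytokines TNFα (tumour necrosis factor) and IL1β (interleukin 1), and LPS, the lipopolysaccharide of Gram-negative bacteria. RNA of each condition was hybridised to 1 single-colour NimbleGen array to screen for transcripts responsive to such stimuli. No dose is stated in the labels. With 1 array per condition no difference below has a replicate check, an error or a p-value.

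Survival members hold the effectors and the BH3-only proteins in a groove on their surface. BH3-only proteins occupy that groove or act on the effectors directly when a cell is damaged or deprived of signals, and BAX and BAK1 then assemble into pores that release cytochrome c. Several of these genes are under transcriptional control, BCL2A1 and BCL2L1 as known targets of NF-κB. BCL2A1 is best known from leukocytes, where it is strongly expressed.

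Values are intensities after robust multi-array averaging (RMA), on a linear scale unless called log2. Median intensity lay between 245 and 259.5 on the 4 arrays, and a control set of 5000 random-sequence probes read between 54.1 and 56.4. A gene is called higher or lower when its values on a pair of arrays lie 2-fold or more apart and the larger is not under a floor of 8.02 on the log2 scale (260.5 on the linear scale), the median level of all named genes. A value under 2 times the random control of its array, a limit of 108.2 to 112.9, is called near background, and a fold against it is computed against that limit and given as "at least". All 21 squamous epithelial markers lay above the near-background limit on all arrays, with summed intensities from 239687 (IL1β) to 291161 (LPS). In that list CDH1, E-cadherin, and the integrin ITGA6 were lower than with PBS for all 3 stimuli. CDH1 read 1209 with PBS and 231.7 to 286.7 with the stimuli, and ITGA6 800.4 and 177.4 to 289.5. A single PBS array thus sets all of these differences. The keratins KRT14 and KRT17 and the transcription factor TP63 were higher with LPS, and the other 16 were not called against PBS. The LPS array stood apart: over all named genes 1572 to 1747 were called between it and each other array, against 334 to 637 between the other arrays. Fibroblast and endothelial markers were low on every array, with at most 2 of 10 and 2 of 9 at the floor.

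BCL2A1 was the member whose arrays lay farthest apart. Its intensity was 1272 under PBS, 4141 under TNFα, 4566 under IL1β and 59.3 under LPS. Both cytokine arrays were thus above the PBS array, and the LPS array lay near background. BCL2A1, which binds and blocks BH3-only proteins, is a small and short-lived survival protein. It was 3.26-fold higher with TNFα than with PBS (log2 difference 1.70) and 3.59-fold higher with IL1β (1.84). With LPS it was at least 11.3-fold lower than with PBS (log2 difference of the measured values -4.42).

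Direct comparison of the stimuli gave the widest differences of the family. BCL2A1 with LPS was at least 36.7-fold below TNFα and at least 40.5-fold below IL1β, while TNFα and IL1β differed by a log2 value of -0.14. Of the 9268 genes with a value at the floor on either cytokine array, 64.2% differed at least as much between them, so the order of the cytokines for BCL2A1 is not resolved by these arrays. The LPS value of BCL2A1 is at background, so its differences from LPS are bounds, and their ranks among genes are not given. With TNFα against PBS 1.92% of 9417 genes at the floor differed by as much as BCL2A1 in either direction, and with IL1β 1.60% of 9425.

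**Figure D1:**
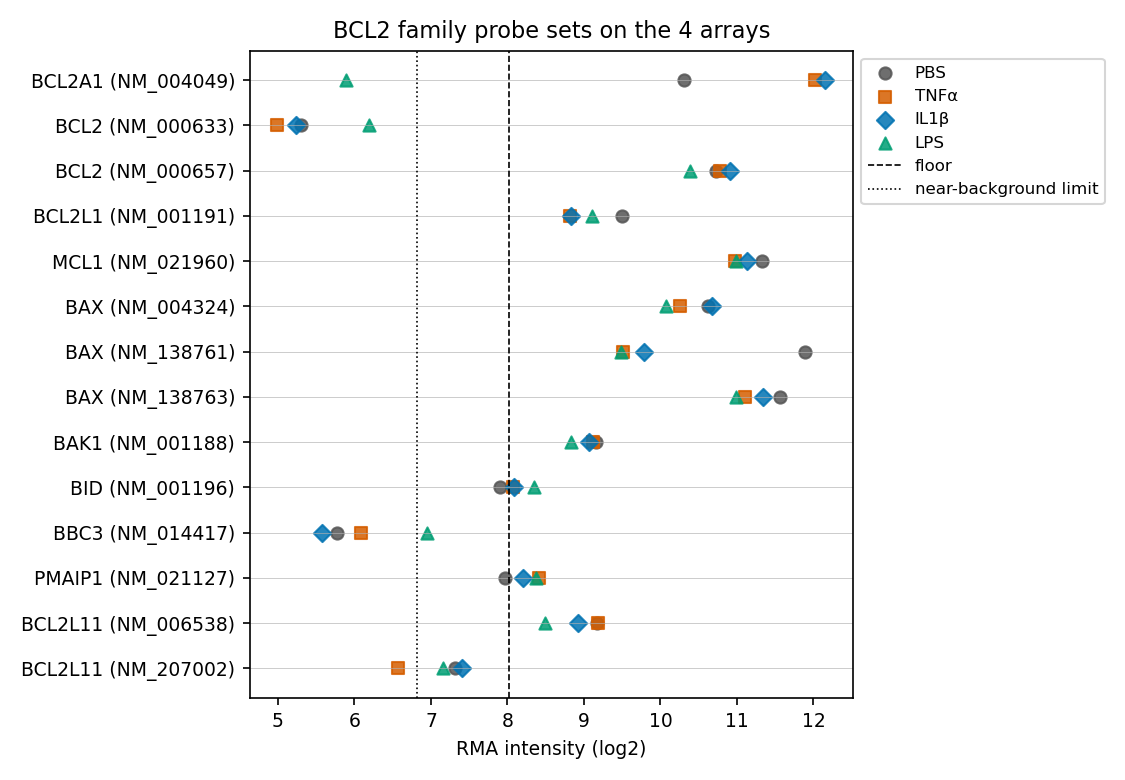
RMA intensity (log2, horizontal axis) of the 14 probe sets of the BCL2 family on the PBS, TNFα, IL1β and LPS arrays, 1 point per array, with the floor at 8.02 and the near-background limit (drawn at the LPS array's 112.9) as vertical lines. BCL2A1 spans 6.27 log2 units as measured, with LPS near background, the BAX set NM_138761 spans 2.40 with PBS alone at the high end, and the other 12 sets span at most 1.38.

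BCL2A1 was the single member past the 2-fold rule in 5 of the 6 comparisons. Here each gene is read from its probe set of highest mean log2 intensity. Another set of BAX, described below, also lay past 2-fold, lower than PBS with every stimulus. Of the 10 members 9 had a value at the floor in each comparison, BBC3 being the exception. For TNFα against PBS BCL2A1 was 1 of 10 members called, where 3.71% of all 17182 named genes and 6.76% of those at the floor were called in either direction. For IL1β against PBS it was 1 of 10, against 3.68% of all named genes and 6.71% of those at the floor. For LPS against PBS it was 1 of 10, against 9.15% and 16.3%. Compared with TNFα the LPS array again gave 1 of 10, against 9.57% and 17.0%, and compared with IL1β 1 of 10, against 10.2% and 18.0%. Between TNFα and IL1β none of the 10 was called, against 1.94% and 3.60%. For the comparisons with LPS the members' share is near the background, and a count of 1 among 10 sets the family apart in none. The median of the 10 log2 differences was 0.04 for TNFα, -0.14 for IL1β and -0.34 for LPS, BBC3 included at its measured values, beside -0.03, -0.03 and 0.02 over all named genes.

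**Figure D2:**
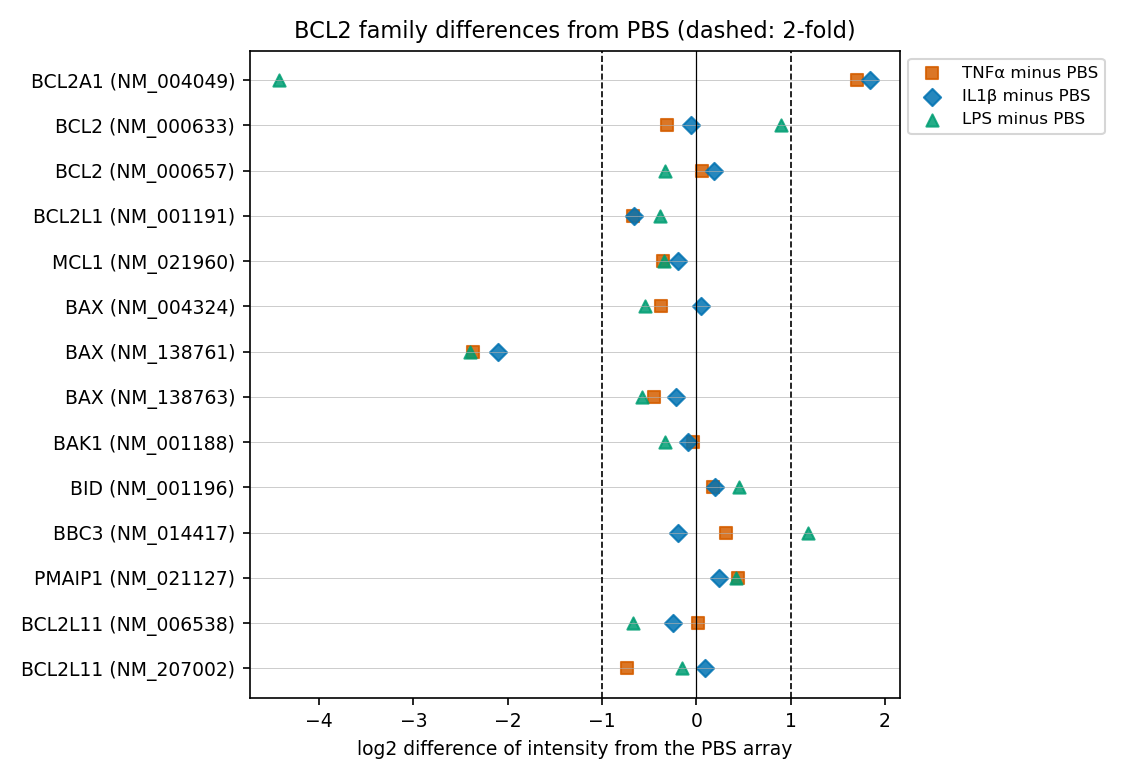
Difference of log2 intensity from the PBS array (horizontal axis) for each of the 14 probe sets with TNFα, IL1β and LPS, with dashed lines at a 2-fold difference. All 3 comparisons share the 1 PBS array. BCL2A1 lies beyond the lines to the right with both cytokines and to the left with LPS, and the BAX set NM_138761 lies between -2.40 and -2.10 with all 3 stimuli.

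The stretch before the start of BCL2A1 differs in base composition from that of most other members, and it is printed beside that of BAX, the other gene with a probe set past 2-fold. Both are the 250 bases before the annotated start, 5′ to 3′, from RefSeq on GRCh38.p14, with CG dinucleotides in capitals. The BCL2A1 stretch is chr15:79971197-79971446 on the minus strand and the BAX stretch is chr19:48954625-48954874 on the plus strand.
BCL2A1: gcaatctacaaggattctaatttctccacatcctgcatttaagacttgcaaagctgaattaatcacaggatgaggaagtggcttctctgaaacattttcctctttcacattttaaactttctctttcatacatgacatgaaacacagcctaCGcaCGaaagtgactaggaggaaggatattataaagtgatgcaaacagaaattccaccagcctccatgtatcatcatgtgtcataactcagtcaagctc
BAX: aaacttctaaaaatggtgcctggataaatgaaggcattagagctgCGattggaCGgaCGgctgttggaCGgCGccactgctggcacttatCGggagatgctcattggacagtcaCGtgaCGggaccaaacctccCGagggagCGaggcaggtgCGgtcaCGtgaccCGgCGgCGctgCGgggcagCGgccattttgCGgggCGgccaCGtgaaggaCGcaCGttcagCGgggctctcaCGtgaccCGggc
The BCL2A1 stretch holds 2 CG dinucleotides and 38.8% G and C, and the BAX stretch 25 and 62.8%. Over 35116 promoters of that length in the table the medians were 11 CG dinucleotides and 58% G and C, and 22.9% held as few CG dinucleotides as BCL2A1 or fewer. The table had 14 such stretches for 9 of the 10 members, MCL1 having no entry. Those of members other than BCL2A1 held between 4 and 36 CG dinucleotides, with BBC3 at 4, BAK1 at 5 and PMAIP1 at 36.

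Motifs were searched on both strands of these stretches. The NF-κB consensus matched in none of the 14 and in 5.21% of all promoters. The AP-1 site TGANTCA matched once, before BBC3, and in 6.57% of all promoters. The TATA box TATAAA matched in BCL2A1, starting 70 bases before the gene start, and at 2 places in 1 of the BCL2L1 stretches, and in 10.7% of all promoters. The 3 motifs have no matches that overlap here. A match is only a run of letters, and sites outside these windows were not searched.

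The profile of BCL2A1 over the 4 arrays was set against those of 10131 characterised protein-coding genes that reached the floor on at least 1 array. Each log2 profile was centred on its own mean, and the distance was the root mean square over the 4 arrays. BCL2A1 was the only member that met the rule for this search, a span of at least 1 log2 unit with the highest array at the floor. The 5 nearest genes were MYH7, the β heavy chain of cardiac myosin (distance 0.56), LYZ, lysozyme (0.74), TNNI3, cardiac troponin I (0.82), MYH6, another myosin heavy chain of the heart (0.87) and ALOX5AP, a protein of leukotriene synthesis in myeloid cells (1.09). MYH7 read 3673 under PBS, 4946 under TNFα, 4886 under IL1β and 80.6 under LPS. LYZ read 6917, 5600, 10390 and 209.3 in the same order. Like BCL2A1, both were bright on 3 arrays and dim with LPS, but neither was 2-fold higher with a cytokine than with PBS. TNNI3 was called higher with TNFα, at 5078 against 2445 with PBS, but not with IL1β, at 3305. The distances use measured values, and BCL2A1, MYH7, MYH6 and ALOX5AP were near background with LPS. With only 4 arrays, nearness of profile describes these arrays and is no measure of relation between genes.

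**Figure D3:**
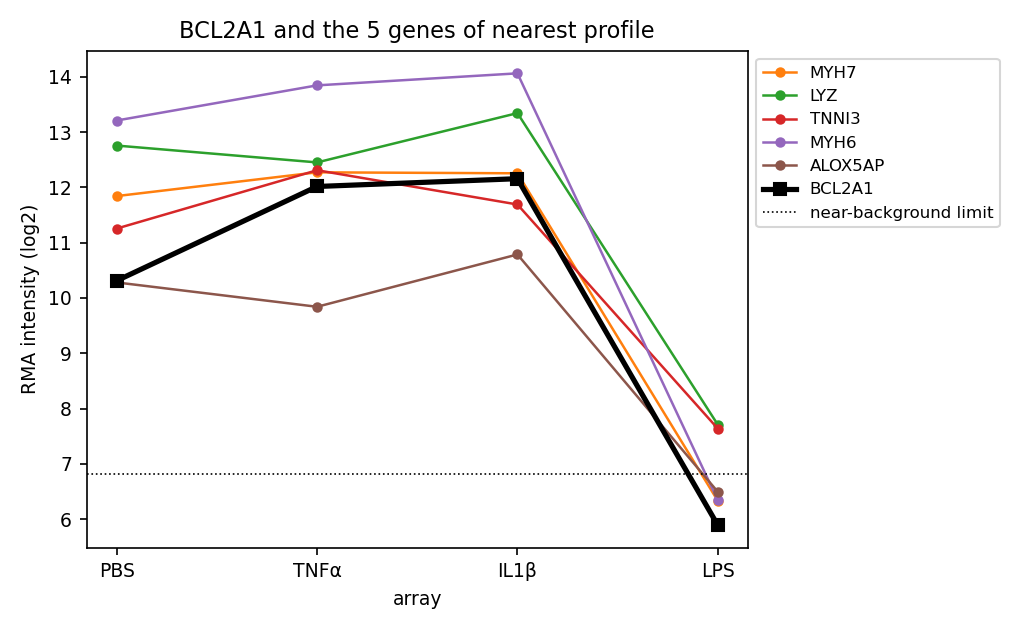
RMA intensity (log2, vertical axis) of BCL2A1 (black squares) and of MYH7, LYZ, TNNI3, MYH6 and ALOX5AP on the PBS, TNFα, IL1β and LPS arrays, 1 point per array, joined by lines only to guide the eye. All 6 genes are lowest with LPS, at or below 209.3 on the linear scale, and BCL2A1 is the one that lies farthest above its PBS value on both cytokine arrays.

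Since BCL2A1 is strongly expressed in leukocytes, the leukocyte markers are given beside it. All 27 listed markers were measured, and their summed intensity was 12888 under PBS, 18012 under TNFα, 19385 under IL1β and 4950 under LPS. LYZ holds much of these sums, and without it the other 26 came to 5970, 12412, 8995 and 4741 in the same order, lowest with LPS again but with PBS only a little higher. Against PBS 5 leukocyte markers were higher and 1 lower for TNFα, 7 and 1 for IL1β, and 1 and 5 for LPS. Over all named genes the share called in either direction was 3.71%, 3.68% and 9.15% in the same order. The number of markers near background was 12 under PBS, 8 under TNFα, 9 under IL1β and 16 under LPS. PTPRC (CD45), the pan-leukocyte phosphatase, read 91.5 under PBS, 1295 under TNFα, 1046 under IL1β and 81.5 under LPS, so it was near background with PBS where BCL2A1 was not. TYROBP, a myeloid signalling adaptor, read 801.4, 838 and 1048 with PBS, TNFα and IL1β and 82.3 with LPS. Other called markers did not follow BCL2A1. AIF1 read 185.1, 1193, 997.5 and 1386 with PBS, TNFα, IL1β and LPS, and was highest with LPS. ITGB2 read 893.9, 368.6, 163.7 and 269.1 in the same order, and CD68 608.2, 312.1, 377.8 and 279.5. Both were highest with PBS. The T cell markers CD3E and CD2, the B cell marker MS4A1, the integrin ITGAM, the granulocyte enzyme MPO and the lysosomal protein LAPTM5 were near background on all 4 arrays. Other lymphocyte markers of the list were not. CD4 read 594.5, 502.7, 297.9 and 390.1 with PBS, TNFα, IL1β and LPS. In the same order the B cell marker CD79A read 295, 216.8, 228 and 83.8, and the T cell marker CD3D 107.2, 194.2, 188.3 and 253.4. Cardiac muscle markers, 15 measured, summed to 46156 under PBS, 59591 under TNFα, 66619 under IL1β and 17827 under LPS. Without ACTC1, the brightest, they came to 28195, 38445, 37842 and 4882, and the median marker read 1630, 1319, 1806 and 199.2. The cardiac marker MYH6 read 9470, 14709 and 17101 with PBS, TNFα and IL1β and 81.3 with LPS. The source of cardiac and leukocyte transcripts in a squamous carcinoma line was not tested, nor was their part in the BCL2A1 differences. Whether any array carried RNA from outside the line was not tested either. The lower BCL2A1 value with LPS is a difference between arrays, and was not shown to be a response of the carcinoma cells. In RNA from a whole culture, fewer cells of a type and less RNA per cell cannot be told apart.

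The other survival members differed little. MCL1, a short-lived guardian that is turned over by the proteasome, read 2563 under PBS, 2007 under TNFα, 2241 under IL1β and 2026 under LPS. The PBS array was the highest, and all MCL1 values lay within 1.28-fold of each other. Of the genes at the floor 42.9% differed from PBS as much or more with TNFα, and 60.9% with LPS.

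BCL2L1, whose main product BCL-XL protects many epithelial cells, read 720.8 under PBS, 450.9 under TNFα, 454.7 under IL1β and 550.8 under LPS. The PBS array was again the highest. The log2 differences of BCL2L1 from PBS were -0.68 for TNFα, -0.66 for IL1β and -0.39 for LPS, all under 2-fold. Among genes at the floor 16.0% differed at least as much with TNFα and 16.7% with IL1β. The cytokine arrays were almost equal, with a log2 difference of -0.01 between TNFα and IL1β. The only BCL2L1 probe set carries NM_001191, the record of the short isoform BCL-XS, which promotes death where BCL-XL protects. The 2 transcripts share most of their sequence, and whether the set separates them was not tested.

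BCL2 itself, the founding survival member, had 2 probe sets of very different level. The set NM_000657, the record of the β transcript, read 1696 under PBS, 1761 under TNFα, 1930 under IL1β and 1343 under LPS. LPS was the lowest and IL1β the highest, and the 4 values lay within 1.44-fold. The set NM_000633, the record of the α transcript that encodes the membrane-anchored protein, read 39.4, 31.8, 37.8 and 73.1 in the same order. All 4 of these were near background, so no difference is given for the α set. The level given for BCL2 therefore rests on the β set alone, with a log2 difference of -0.34 for LPS minus PBS.

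Among the effectors, BAX was measured by 3 probe sets that did not give the same picture. The set NM_138763, the record of the δ transcript and the brightest, read 3022 under PBS, 2209 under TNFα, 2592 under IL1β and 2033 under LPS. The set NM_004324, the record of the β transcript, read 1577, 1217, 1637 and 1080 in the same order. Both were lowest with LPS, and their differences from PBS lay between -0.57 and 0.05 on the log2 scale. The set NM_138761, the record of the α transcript that encodes the usual BAX protein, read 3779 with PBS but 731.3 with TNFα, 880.8 with IL1β and 714.6 with LPS.

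On that α set BAX was 5.17-fold lower with TNFα, 4.29-fold lower with IL1β and 5.29-fold lower with LPS than with PBS. The 3 stimuli differed from each other on it by at most 0.30 on the log2 scale, so the PBS array stands alone and a single array sets all of these differences. The 3 sets lay 1.996 log2 units apart for TNFα minus PBS, 2.16 for IL1β minus PBS and 1.86 for LPS minus PBS. They lay at most 0.30 apart in the comparisons between stimuli. Averaging the 3 sets put BAX just past 2-fold lower with TNFα (-1.07) and with LPS (-1.17), but not with IL1β (-0.76). Probe sequences were not used here, so which exons each set reads is not known.

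BAK1, the effector that resides on the mitochondria, read 570.8 under PBS, 556.9 under TNFα, 537.7 under IL1β and 454.8 under LPS. Its 4 values lay within 1.26-fold, the narrowest span of all 14 probe sets. LPS was the lowest, by a log2 difference of -0.33 from PBS, and 62.1% of genes at the floor differed by as much or more.

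The BH3-only members were BID, PMAIP1, BBC3 and BCL2L11. BID, which caspase 8 cleaves to pass a death receptor signal to mitochondria, read 238.6 under PBS, 270.3 under TNFα, 272.8 under IL1β and 326.3 under LPS. PMAIP1 (NOXA), a partner of MCL1, read 249.5, 339.8, 293.6 and 332.7 in the same order. Both were lowest and just under the floor with PBS, and neither reached 1.5-fold: the largest log2 differences from PBS were 0.45 for BID, with LPS, and 0.45 for PMAIP1, with TNFα. The share of genes at the floor that differed at least as much was 49.8% for BID with LPS and 32.4% for PMAIP1 with TNFα.

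BBC3 (PUMA), a strong activator of BAX and BAK1, read 54.4 with PBS, 67.9 with TNFα and 47.5 with IL1β, all near background. With LPS it read 123.7, above the near-background limit of 112.9 but below the floor, at least 1.14-fold higher than with PBS. The measured log2 difference of 1.18 rests on a PBS value at background and is no call under the rule.

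BCL2L11 (BIM), which binds every survival member, had 2 probe sets. The brighter, NM_006538, read 574.6 under PBS, 583.1 under TNFα, 483.2 under IL1β and 360.9 under LPS, the LPS array being the lowest at a log2 difference of -0.67 from PBS. Of the genes at the floor 32.5% differed from PBS with LPS by as much. The dimmer set, NM_207002, read 158.9, 95.1, 169.0 and 142.6, below the floor throughout and near background with TNFα. Its difference for LPS minus PBS was -0.16, so it did not repeat the size seen on the brighter set.

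By role, the LPS array read below PBS for all 4 survival members and for both effectors, above PBS for BID and PMAIP1, and below it for BCL2L11. BBC3, near background on 3 arrays, is left out of this account. Apart from BCL2A1 none of these passed 2-fold with the floor on the probe set taken for its gene. The α set of BAX, which was not the set taken, did pass, at a log2 difference of -2.40. Levels of different genes are not compared, because probes differ in brightness for reasons other than abundance.

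The remaining genes of the apoptosis pathway were followed in 5 lists. Of 13 further BCL2 family genes, 1 was higher with TNFα, BAD, a BH3-only protein held in check by survival kinases, at 419.6 against 189.4 with PBS (log2 difference 1.15). With IL1β 1 was lower, the effector-like BOK, at 193.3 against 499 (-1.37). With LPS 1 was higher, the mitophagy receptor BNIP3L, at 336.4 against 126 (1.42). BAD with IL1β read 378.4, a log2 difference of 0.998 from PBS that falls just short of 2-fold. BAD read 143.7 with LPS and was lower there than with either cytokine. The list medians were 0.03, 0.09 and -0.16.

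Inhibitors of apoptosis and their antagonists, 8 measured, had none past 2-fold with either cytokine. With LPS 1 was higher, BIRC3 (cIAP2), an NF-κB target that ubiquitinates signalling proteins at the TNF receptor, at 1337 against 393.8 with PBS. XIAP, the direct caspase inhibitor, stayed between 1097 and 1221 on the 4 arrays. In the list of apoptosome and caspase genes, 14 of 15 measured, none passed with TNFα. CASP6, an executioner caspase, was lower with IL1β at 195.5 against 429.4 with PBS. With TNFα CASP6 read 224, a log2 difference of -0.94 that falls just short of 2-fold. CFLAR (c-FLIP), which blocks caspase 8 at death receptors, read 277.4 under PBS, 515 under TNFα, 355.8 under IL1β and 102.1 under LPS. CFLAR was at least 2.46-fold lower with LPS than with PBS.

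Of 11 death receptor genes, FAS was higher with TNFα at 319.6 against 156 with PBS, and read 308.5 with LPS, a log2 difference of 0.98 that falls short of 2-fold. TNFRSF10A, the TRAIL receptor DR4, was lower with IL1β, at 682.6 against 1437. With LPS 2 were lower, the decoy receptor TNFRSF10C, at least 5.37-fold (606.6 with PBS), and the adaptor TRADD, at 388.2 against 980.7.

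Of 9 measured genes that act on the turnover or transcription of MCL1 and BIM, 1 was called against PBS. DDIT3 (CHOP), a stress transcription factor that can induce BIM, read 480.5 under PBS, 265 under TNFα, 461 under IL1β and 2065 under LPS. It was highest with LPS, the array on which the brighter BCL2L11 set was lowest, while the dimmer set was lowest with TNFα. Any link between DDIT3 and BCL2L11 was not tested. FBXW7, a ubiquitin ligase subunit named after its values were seen, read 94.0, 209, 137.6 and 219.8 in the same order, at least 1.93-fold above PBS with TNFα and at least 2.03-fold with LPS, but under the floor throughout. HUWE1, a ubiquitin ligase for MCL1, read 2387 with PBS and between 1499 and 1774 with the stimuli.

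**Figure D4:**
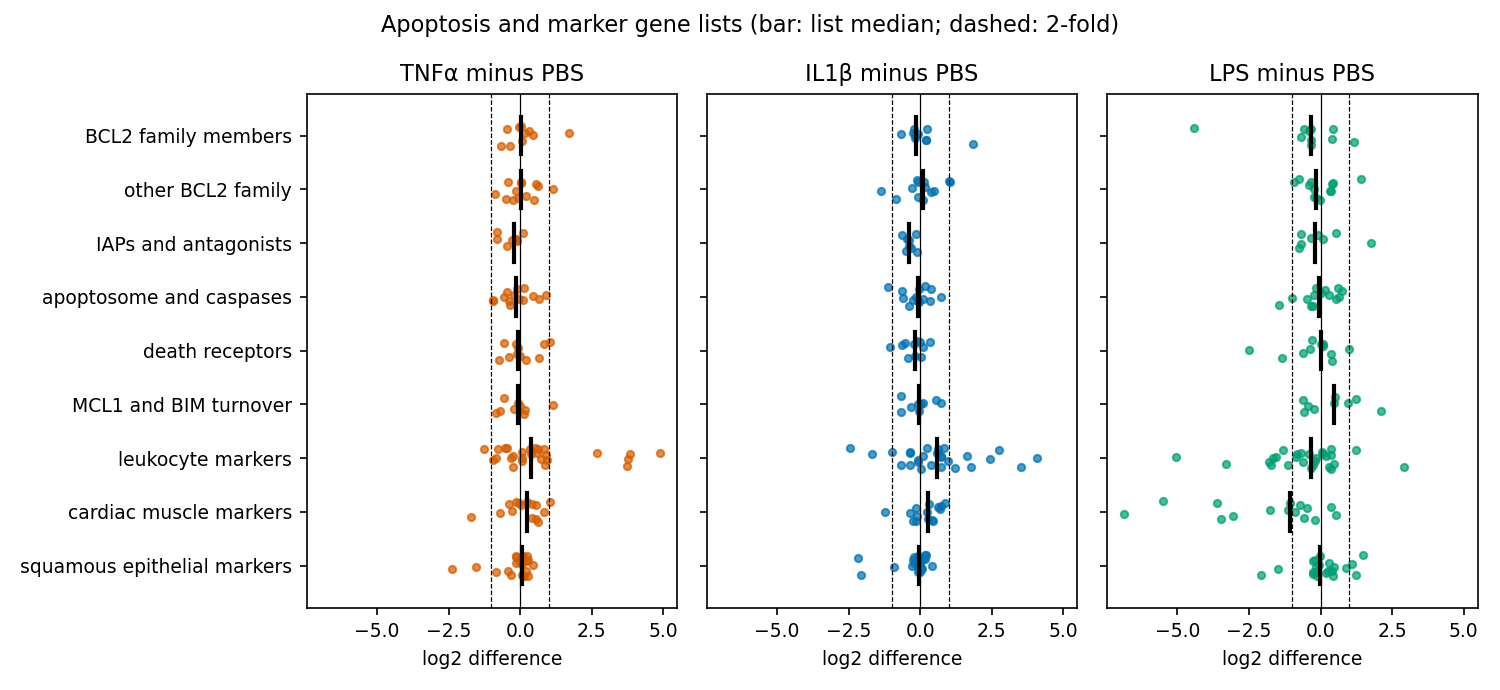
Log2 differences from PBS (horizontal axis) of the 10 BCL2 family members, 5 lists of other apoptosis genes and 3 lists of marker genes, in 1 panel per stimulus, 1 point per gene, with a bar at each list median and dashed lines at 2-fold. All panels share the PBS array. Most apoptosis genes lie inside the dashed lines, with BCL2A1 the extreme point of the members' row in each panel, while leukocyte and cardiac markers spread widely and the cardiac median with LPS is -1.07.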

How the data were processed

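KYSE410 RNA from 4 conditions was measured on 1 array each. The authors deposited linear RMA intensity values per probe set, per the file headers. RMA usually subtracts background, gives all arrays 1 distribution and summarises each set's probes, so a shift shared by most genes is lost. The RMA software is not given in the sources used here. Intensities of the deposited series table were equal to the per-array values for all 45033 probe sets, after rounding to the printed decimals.

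Accessions without versions were matched to RefSeq of GRCh38.p14: 18863 probe sets had 1 symbol, giving 17182 genes, and a gene took its probe set of highest mean log2 intensity. No build is stated for the arrays. Differences are of log2 values between 2 arrays. No test was made. The number of arrays limits the precision. Members, gene lists, rules and alternatives were chosen with earlier results of these data known. Named genes are all members, up to 4 genes past 2-fold of each apoptosis list, marker genes used as references, and the 5 genes of nearest profile to any member spanning 1 log2 unit. 1 further gene list is not reported here. Alternatives tried were dropping the floor or moving it to the 75th percentile, averaging probe sets, loess, a second quantile normalization, the series table, adding 50.9 before log2, a 1.5-fold threshold and, added after seeing the data, a floor without the LPS array. Software was Python 3.11.15 with pandas 2.3.3, numpy 2.4.6, matplotlib 3.10.9 and statsmodels 0.14.6.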

Additional observations from a re-analysis of the deposited data

How the results depend on the processing

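No paired analysis was possible because each condition has 1 array. Over 9 alternatives, 540 member differences included 8 that newly passed the size rule, none that lost it and none called with its sign turned. Many are copies, because changes of floor or threshold and the series table leave each log2 difference as it was. Dropping the floor or lowering the threshold cannot lose a call. Some uncalled differences did turn sign. With probe sets averaged, BCL2 for LPS minus PBS went from -0.34 to 0.28 and BCL2L11 for TNFα minus PBS from 0.02 to -0.36. BCL2A1 kept its calls in all of them, with log2 differences of 1.66 to 1.79 for TNFα minus PBS, 1.80 to 1.91 for IL1β minus PBS and -4.42 to -3.58 for LPS minus PBS, the last from the offset. Members past the rule became 2 in place of 1 for LPS minus PBS and LPS minus IL1β with no floor (BBC3), for TNFα minus PBS and LPS minus PBS with the mean of all probe sets (BAX), and at 1.5-fold for TNFα minus PBS and IL1β minus PBS (BCL2L1) and LPS minus PBS and LPS minus TNFα (BCL2L11). Summed over the 6 comparisons, calls of members rose from 5 to 9 at 1.5-fold. Counts over all genes, in the order TNFα, IL1β and LPS against PBS, TNFα minus IL1β, LPS minus TNFα and LPS minus IL1β, were 637, 632, 1572, 334, 1644 and 1747. They became 1350, 1389, 2707, 947, 2837 and 3048 with no floor, 204, 205, 696, 74, 710 and 757 with the floor at the 75th percentile, and 1993, 2013, 3735, 1186, 3887 and 4080 at 1.5-fold. With the offset TNFα minus IL1β gave 207. A lower threshold or floor admits more genes by construction. BBC3 lies near background on every array but LPS, and the α set of BCL2 on every array. With the floor in place, none of their differences is a call.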
